A study of Homo sapiens with 12 samples.

Results

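The genes described here are listed as transcriptional targets of the tumour suppressor p53, read out in a cell line whose own p53 is mutated. They were chosen by name: 33 gene symbols were looked up in the deposited gene count table of 57773 genes, and a gene was described if it had at least 10 counts in at least 3 of the 12 libraries. That rule kept 31 genes, all of which were among the 20571 genes tested. The remaining genes were SPATA18, with 2 to 10 counts per library, and EDA2R, with 0 to 2 counts per library, and neither was tested.

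RNA was sequenced from the established human cell line MDA-MB-231, which models triple-negative breast cancer, in 4 groups of 3 libraries. Cells received TGFβ together with alisertib (Combination), TGFβ alone (TGFB), alisertib alone (ALIS) or no treatment (CTL), and treatment lasted 48 h. TGFβ is a secreted growth factor whose receptors activate SMAD transcription factors, and alisertib inhibits Aurora A, a kinase of mitosis. All groups are of the same line, and the sources used here state no doses. The labels do not say that libraries within a group are separate cultures, and the p-values therefore cover library-to-library spread, which may be technical.

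p53 is a transcription factor that binds paired copies of a short DNA element and switches on genes for cell cycle arrest, apoptosis, DNA repair and its own feedback inhibition. MDM2 and MDM4 hold wild-type p53 in check, and p53 in turn activates MDM2. Many p53 target genes are also known to be transcribed under the control of other factors.

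Totals were 93701658 to 120619368 counts per library. Of the markers of the line, VIM averaged 2077, 2036, 1338 and 1230 CPM (reads of the gene relative to the library total, scaled with TMM factors) in Combination, TGFB, ALIS and CTL libraries, while SPARC reached at most 1.08 CPM. ESR1 and PGR, the hormone receptors that triple-negative cells lack, had at most 4 counts in any library, whereas ERBB2 had 48.5 to 73.2 CPM. Summed leukocyte markers came to 0.682 to 0.816 CPM in Combination, 0.787 to 0.938 in TGFB, 1.34 to 1.86 in ALIS and 1.42 to 3.05 in CTL libraries, with none of the 4 genes at 0 in all libraries, and the 2 endothelial markers found in the table summed to at most 0.128 CPM; their part in the results was not tested. Of the luminal breast markers, FOXA1 had at most 6 counts, while GATA3 and KRT19 were present. In each group 1 library stood apart from the other 2 (Combination 10, TGFB 6, ALIS 9 and CTL 1). Their deviations from their group means correlated at 0.729 to 0.875 over 10250 genes, which share library and base composition.

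Promoters are shown for TP53I3, DDB2 and PLK2, which changed most with TGFβ, to place the expression values beside the DNA. FAS was added as a gene that carries the p53 element. Where a gene had several starts, the window with the most copies of the element was chosen. They are RefSeq windows (GRCh38.p14) from 250 bases before to 50 bases after a transcription start, read 5′ to 3′ on the gene's strand. Capitals mark each copy of the p53 decamer, the 10-base unit of the p53 consensus, allowing no mismatch. The member set held windows of 26 of the 33 genes, 40 windows in all. TNFRSF10A, TNFRSF10B, TNFRSF10D, TP53INP1, RRM2B, PHLDA3 and TRIM22 were not in it, and their promoters were not described. Their absence does not mean that RefSeq lists no start for them. TNFRSF10A, TNFRSF10B, TNFRSF10D, TP53INP1 and RRM2B lie on the same chromosome, and no window from it was in the member set. The windows of all genes are not known to share this limit, so the shares below should be read as coming from unlike sets.
DDB2, chr11:47214724-47215023, plus strand: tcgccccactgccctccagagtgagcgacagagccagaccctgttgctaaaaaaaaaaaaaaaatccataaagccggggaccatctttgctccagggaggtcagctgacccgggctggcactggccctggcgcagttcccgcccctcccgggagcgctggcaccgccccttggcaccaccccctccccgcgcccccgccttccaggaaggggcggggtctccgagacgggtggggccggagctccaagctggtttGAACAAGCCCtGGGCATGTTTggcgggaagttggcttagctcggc
TP53I3, chr2:24084785-24085084, minus strand: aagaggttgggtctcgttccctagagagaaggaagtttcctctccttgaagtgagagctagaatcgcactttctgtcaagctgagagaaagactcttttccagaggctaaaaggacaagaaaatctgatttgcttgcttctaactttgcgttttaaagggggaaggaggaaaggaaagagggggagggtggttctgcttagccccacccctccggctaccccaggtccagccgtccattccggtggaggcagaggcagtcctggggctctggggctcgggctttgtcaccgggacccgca
PLK2, chr5:58460037-58460336, minus strand: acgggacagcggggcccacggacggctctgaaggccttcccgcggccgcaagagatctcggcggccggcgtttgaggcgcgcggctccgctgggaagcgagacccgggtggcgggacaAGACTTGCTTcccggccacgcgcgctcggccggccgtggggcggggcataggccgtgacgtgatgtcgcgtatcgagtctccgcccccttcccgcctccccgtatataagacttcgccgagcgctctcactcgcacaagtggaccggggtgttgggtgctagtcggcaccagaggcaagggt
FAS, chr10:88991181-88991480, plus strand: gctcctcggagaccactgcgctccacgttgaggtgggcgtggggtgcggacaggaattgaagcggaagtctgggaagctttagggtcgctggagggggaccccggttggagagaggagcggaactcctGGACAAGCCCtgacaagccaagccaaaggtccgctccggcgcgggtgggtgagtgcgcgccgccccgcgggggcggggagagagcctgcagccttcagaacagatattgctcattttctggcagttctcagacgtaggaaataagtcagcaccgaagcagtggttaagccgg

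The DDB2 window, at the second of its listed starts, held 2 decamers separated by 1 base, lying 6 to 26 bases after the start. The window at its first listed start held none. It was the only one of the 26 genes with a full site, defined as 2 decamers up to 13 bases apart, and 10 of 34943 windows of all genes (0.0286%) held one. PLK2 and FAS each held a single decamer, from -132 to -123 and from -122 to -113 relative to the start, the FAS window being at the third of its 3 listed starts and the other 2 holding none. TP53I3 held none in this window. Over the 26 genes, 7 (26.9%) had at least 1 decamer, against 2194 of 27167 genes overall (8.08%). Per window the shares were 17.5% and 6.64%. The 7 genes were DDB2, PLK2, FAS, AEN, FDXR, RPS27L and SESN1. In the test of TGFB against CTL libraries described below, DDB2, PLK2 and FAS passed. AEN (log2 0.18), FDXR (-0.32), RPS27L (-0.00) and SESN1 (-0.08) did not. The Smad box, searched as CAGAC and its complement GTCTG, was found in 17 of the 26 genes (65.4%) and in 50% of all genes; per window the shares were 50% and 45.3%, and the members have more windows per gene (40 over 26 genes) than genes overall (34943 over 27167). A match is a description of these letters and not evidence of binding.

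Levels per length spanned a wide range. In untreated cells BCL2L1, whose main product Bcl-xL protects against apoptosis, had the highest authors' RPKM of the 31 genes at 82.1, followed by PLK2, a stress-responsive polo-like kinase, at 61.0. TP53I3, a quinone oxidoreductase linked to p53-dependent apoptosis, ranked 4th with 26.9 RPKM in TGFB libraries and 17th with 3.33 RPKM in CTL libraries. DDB2, the damage-recognition factor of nucleotide excision repair, ranked 2nd with 41.0 RPKM in TGFB and 10th with 11.2 RPKM in CTL libraries. At the low end stood CYFIP2, a subunit of the actin-regulating WAVE complex, with 0.0413 RPKM in TGFB and 0.0916 RPKM in CTL libraries. At least 10 RPKM was reached by 12 of the 31 genes in Combination, 11 in TGFB, 10 in ALIS and 10 in CTL libraries. These levels rest on the authors' gene lengths.

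**Figure D1:**
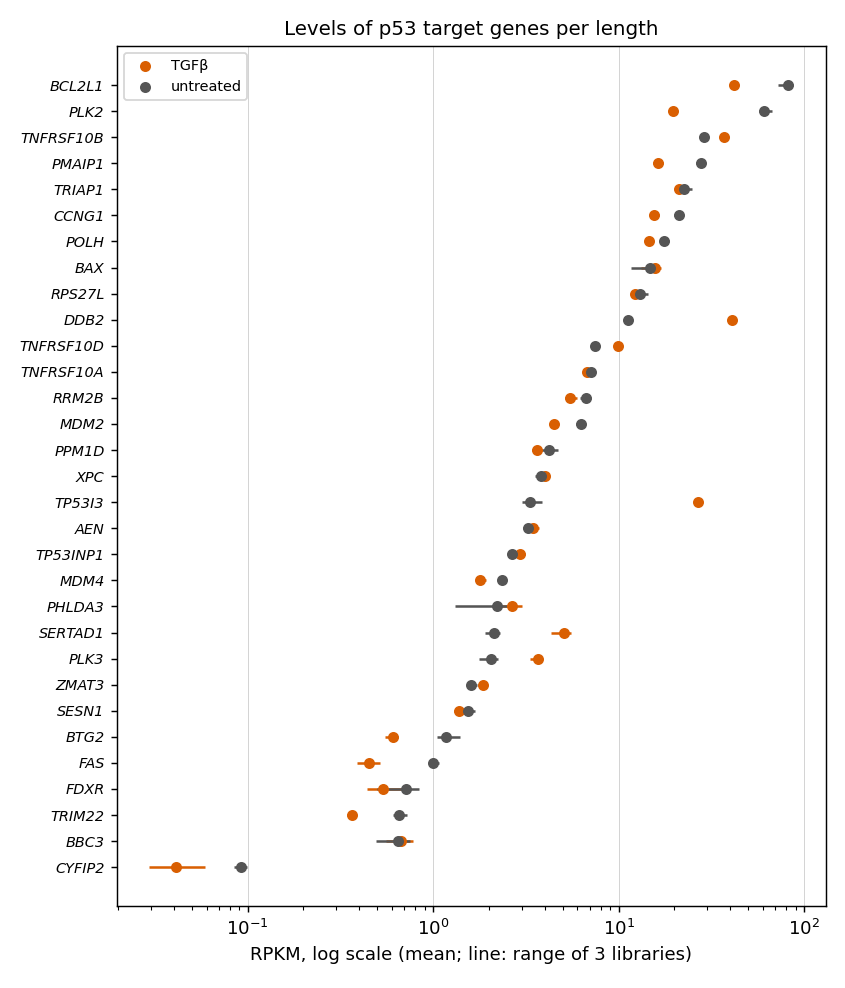
Level of each of the 31 genes in TGFB and CTL libraries, as authors' RPKM on a log axis; points are means of 3 libraries and lines their range. TP53I3 (26.9 against 3.33 RPKM) and DDB2 (41.0 against 11.2 RPKM) lie furthest to the right of their CTL points.

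TGFβ changed most of these genes, in both directions. Of the 31 tested genes 8 were higher and 12 lower in TGFB than in CTL libraries (64.5%). Of all 20571 tested genes 38.6% were called, 18.5% higher and 20.1% lower. Called means an adjusted p under 0.05, from edgeR's quasi-likelihood test and the Benjamini-Hochberg procedure over all tested genes. The median log2 fold change was -0.00 over the 31 genes and -0.01 over all tested genes, so the genes did not move one way. The 31 genes had a median of 2542 counts per library and all tested genes 856, and a difference of given size is easier to call at higher counts. In bulk RNA, a change in the share of cells expressing a gene and a change in RNA per cell cannot be told apart.

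TP53I3 (hg19 chr2:24300303-24308731) had the largest rise. It had 71.1, 74.1 and 68.4 CPM in TGFB libraries 4, 5 and 6, against 7.89, 9.60 and 7.39 CPM in CTL libraries 1, 2 and 3. Each TGFB library lay above each CTL library, and the gene rose 8.58-fold (log2 3.10 ± 0.09 SE, adjusted p 5.42e-12). FAM228B, whose locus overlaps that of TP53I3, rose by a log2 of 0.63; over all 12 libraries it averaged 1151 counts and TP53I3 4164. The library kit does not mark strand, so reads in a shared stretch cannot be told apart; how many reads fell there was not measured. CDKN1A, the cell cycle inhibitor p21, averaged 257, 253, 73.3 and 61.4 CPM in Combination, TGFB, ALIS and CTL libraries, and GADD45A, a growth arrest and damage response gene, averaged 24, 17.5, 32.8 and 18.1 CPM.

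DDB2 (hg19 chr11:47236493-47260767) had 84.0, 89.8 and 86.0 CPM in TGFB libraries, against 22.1, 22.7 and 22.2 CPM in CTL libraries. The groups did not overlap, and DDB2 rose 3.88-fold (log2 1.96 ± 0.05 SE, adjusted p 2.12e-12). Of the 4 genes for DNA repair and nucleotide supply, 1 rose and 2 fell (75% called, against 38.6% of all tested genes, median log2 -0.01). Those that fell were POLH, the translesion DNA polymerase eta (log2 -0.18, adjusted p 0.0263), and RRM2B, a subunit of ribonucleotide reductase (log2 -0.19, adjusted p 0.0457). RRM2B had overlapping groups, 32.7 to 37.6 CPM in TGFB and 37.0 to 43.1 CPM in CTL libraries, and kept its call in 3 of 12 fits that each left out 1 library. POLH kept its call in 9 of 12 such fits and lost it without CTL 1, TGFB 4 or TGFB 5, and also with only the 2 groups compared. The 12 fits include those that left out a library outside the 2 groups compared, which tests a call less directly. The POLH locus overlaps that of GTPBP2, which rose by a log2 of 0.39, and the same limit holds for reads in a shared stretch. XPC, the damage sensor of the same repair route as DDB2, had 21 to 22.9 CPM in TGFB and 18.6 to 20.6 CPM in CTL libraries, without passing the test (log2 0.16, adjusted p 0.0987). Its locus, at 2125 mean counts, overlaps LSM3 (7049 mean counts, log2 -0.23) and RP11-434D12.1 (1741, log2 0.46). The limit on reads in a shared stretch holds here too.

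Among the 9 genes of growth arrest, kinases, metabolism and stress, 3 rose, 3 fell and 3 did not pass (median log2 -0.08). The share called was 66.7%, against 38.6% of all tested genes. SERTAD1, a cell cycle regulator that binds CDK4, had 13.3, 13 and 10.4 CPM in TGFB, against 4.41, 5.03 and 5.18 CPM in CTL libraries, without overlap. It rose 2.51-fold (log2 1.33 ± 0.11 SE, adjusted p 2.83e-07). PLK3, a stress-responsive polo-like kinase, rose 1.89-fold to 13.2 to 15.5 CPM in TGFB, against 6.74 to 8.41 CPM in CTL libraries. ZMAT3, an RNA-binding zinc finger protein that shapes splicing, rose 1.24-fold (adjusted p 0.00517).

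PLK2 (hg19 chr5:57749809-57756087) fell most of the 31 genes. It had 104, 105 and 111 CPM in TGFB libraries, against 350, 300 and 290 CPM in CTL libraries, and was 2.94-fold lower with no overlap (log2 -1.56 ± 0.08 SE, adjusted p 6.09e-10). PLK2 and PLK3, related kinases, thus moved in opposite directions. BTG2, an antiproliferative factor that promotes mRNA deadenylation, had 1.73 to 2.03 CPM in TGFB and 3.08 to 4.13 CPM in CTL libraries (log2 -0.87, adjusted p 0.000575). TRIM22, an antiviral ubiquitin ligase, had 2.35 to 2.65 CPM in TGFB and 3.89 to 4.66 CPM in CTL libraries (log2 -0.74); it overlaps TRIM5, which fell too (log2 -0.32). SESN1, a restrainer of mTORC1, FDXR, a mitochondrial ferredoxin reductase, and RPS27L, a ribosomal protein paralogue, did not pass, with log2 values of -0.08, -0.32 and -0.00. The RPS27L locus (6041 mean counts) overlaps LACTB (5478, log2 0.23), and the limit on reads in a shared stretch holds.

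Of the 14 tested genes of apoptosis and death receptors, 4 rose and 4 fell (57.1% called, against 38.6% of all tested genes, median log2 0.16). Of the receptors for the death ligand TRAIL, TNFRSF10B signals death and TNFRSF10D is a decoy with a truncated death domain. TNFRSF10B had 219, 221 and 215 CPM in TGFB, against 162, 159 and 158 CPM in CTL libraries, and rose 1.37-fold. TNFRSF10D had 40.8, 39.9 and 39.9 CPM in TGFB, against 28.1, 29.5 and 27.7 CPM in CTL libraries, and rose 1.41-fold. The other TRAIL death receptor, TNFRSF10A, had 22.1 to 23.4 CPM in TGFB and 21.8 to 23.3 CPM in CTL libraries (log2 0.01, 95% interval -0.12 to 0.14). TP53INP1, an autophagy and stress protein, rose 1.18-fold (adjusted p 0.0152). Its call was kept in 11 of 12 leave-one-out fits and lost without TGFB 6. The TP53INP1 locus (1896 mean counts) overlaps NDUFAF6 (1862, log2 0.04), and the limit on reads in a shared stretch holds.

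FAS (hg19 chr10:90750414-90775542), the receptor for the FAS ligand, had 1.83, 1.59 and 2.11 CPM in TGFB, against 4.17, 3.70 and 3.69 CPM in CTL libraries, and fell 2.09-fold (log2 -1.06 ± 0.12 SE, adjusted p 4.85e-06). Its locus overlaps ACTA2, which fell by a log2 of 0.72 at 124 mean counts, against 335 for FAS. PMAIP1, the pro-apoptotic BH3-only protein NOXA, had 41.7, 39.4 and 44.1 CPM in TGFB, against 69.5, 62.6 and 69.5 CPM in CTL libraries, and was 1.61-fold lower. BCL2L1 had 160, 164 and 152 CPM in TGFB, against 263, 312 and 304 CPM in CTL libraries, and was 1.85-fold lower (adjusted p 9.23e-08). Members with opposite roles in apoptosis were therefore both among the genes that fell. CYFIP2 fell by a log2 of 1.06, at 38 to 81 counts in TGFB and 98 to 114 counts in CTL libraries; its locus overlaps ADAM19, which had 37653 mean counts and rose by a log2 of 3.51.

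BAX, a pore-forming effector of apoptosis, had 39.0 to 50.4 CPM in TGFB and 33.0 to 45.0 CPM in CTL libraries (log2 0.18, 95% interval -0.11 to 0.47). BBC3, the BH3-only protein PUMA, had 2.01 to 2.83 CPM in TGFB and 1.70 to 2.57 CPM in CTL libraries (log2 0.14, 95% interval -0.30 to 0.57). AEN, an apoptosis-enhancing nuclease, had 22.8 to 25.6 CPM in TGFB and 19.9 to 21.9 CPM in CTL libraries, without overlap. It did not pass in edgeR (log2 0.18, adjusted p 0.0587) but was called by DESeq2. PHLDA3, a repressor of AKT (log2 0.36), and TRIAP1, a mitochondrial lipid transfer partner (-0.00), did not pass either. The TRIAP1 locus (3811 mean counts) overlaps AL021546.6 (4715, log2 0.30), and the limit on reads in a shared stretch holds here too.

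All 4 members listed as feedback genes and regulators of p53 had negative log2 values, with a median of -0.33 (-0.01 over all tested genes). Of these 4 members, 3 passed (75%), all lower, where 20.1% of all tested genes were called lower. Genes outside the members moved both ways. Of 29 tested p53 family genes, kinases and cofactors, 5 were higher and 11 lower. MDM2, the ubiquitin ligase of p53, had 42.9, 39.5 and 41.4 CPM in TGFB, against 57.7, 50.9 and 53.1 CPM in CTL libraries, and fell by a log2 of 0.39 (adjusted p 0.000194). MDM4 fell by a log2 of 0.31, and CCNG1, which directs a phosphatase to MDM2, by 0.36. PPM1D, a phosphatase that switches p53 off, had 12.8 to 14 CPM in TGFB and 13.1 to 16.8 CPM in CTL libraries (log2 -0.13, adjusted p 0.294).

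**Figure D2:**
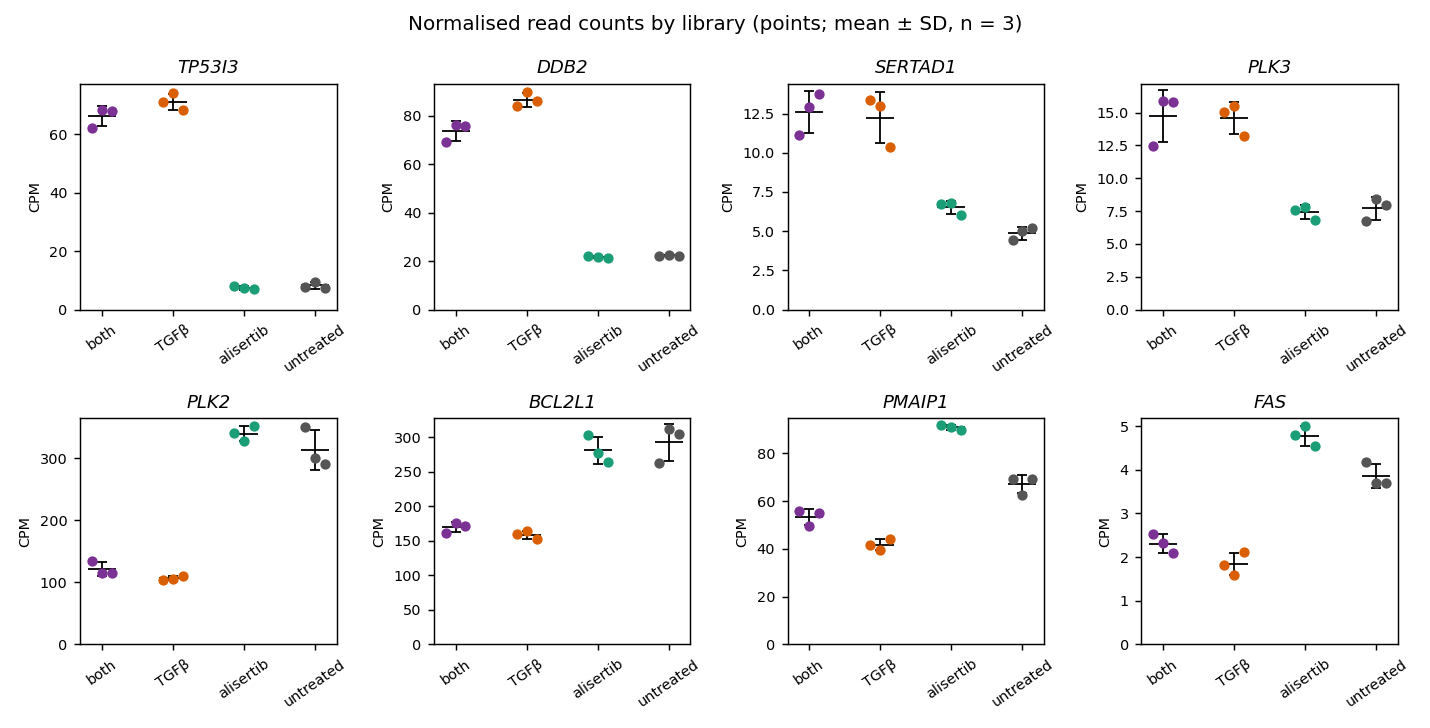
CPM of 8 of the genes in each library (points) with mean ± SD over 3 libraries; the y axes start at 0 and differ between panels. TP53I3 and DDB2 lie higher and PLK2 and BCL2L1 lower in both groups given TGFβ, and PMAIP1 lies highest with alisertib alone (89.8 to 92.0 CPM).

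The TGFβ effect was measured again in alisertib-treated cells, in libraries that the first comparison did not contrast. All 12 libraries entered 1 fit, so the calls of both comparisons share its estimate of spread. Of the 31 genes 9 were higher and 10 lower in Combination than in ALIS libraries (61.3%). Of all tested genes 38.4% were called, 19.4% higher and 19% lower. The same direction was called in both comparisons for 18 genes, 90% of the 20 called without alisertib and 94.7% of the 19 called with it. The fold changes ranked alike (Spearman's rho 0.955 over 31 genes, a description). TP53I3 had 62.3, 68.4 and 68.1 CPM in Combination, against 8.16, 7.23 and 6.97 CPM in ALIS libraries, and rose 8.89-fold. DDB2 had 69.0, 76.0 and 75.9 CPM in Combination, against 22.3, 21.6 and 21.4 CPM in ALIS libraries, and rose 3.38-fold. PLK2 had 134, 115 and 114 CPM in Combination, against 340, 327 and 351 CPM in ALIS libraries, and was 2.80-fold lower. ZMAT3 rose by a log2 of 0.21 (adjusted p 0.039), a call kept in 4 of 12 leave-one-out fits. Of the 2 TGFβ comparisons, BBC3 was called only in this one (log2 0.70 ± 0.21 SE, adjusted p 0.0166). A difference between the 2 comparisons did not pass the interaction test (adjusted p 0.962). BBC3 averaged 2.07, 2.44, 1.27 and 2.21 CPM in Combination, TGFB, ALIS and CTL libraries, and its call was lost without ALIS 9 or Combination 12.

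**Figure D3:**
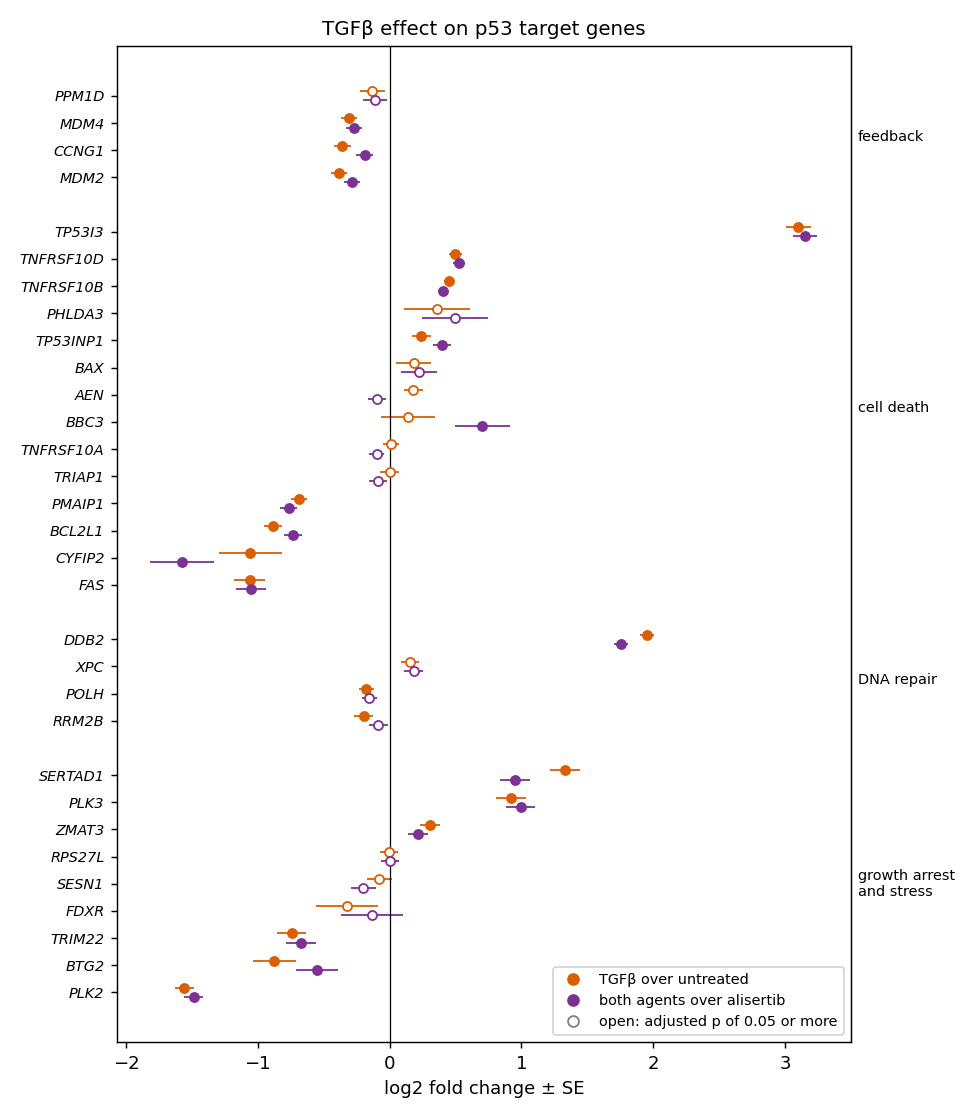
Log2 fold change ± SE of each gene under TGFβ, without alisertib (TGFB over CTL) and with it (Combination over ALIS), grouped by role; filled points passed an adjusted p of 0.05. TP53I3 (3.10 and 3.15) lies at the right edge and PLK2 (-1.56 and -1.49) at the far left together with CYFIP2 (-1.06 and -1.57).

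In ALIS against CTL libraries 4 were higher and 2 lower (19.4%). Of all tested genes 6.74% were called, 3.55% higher and 3.19% lower. PMAIP1 had 92.0, 91.0 and 89.8 CPM in ALIS, against 69.5, 62.6 and 69.5 CPM in CTL libraries, and rose 1.35-fold (log2 0.44 ± 0.06 SE, adjusted p 0.000679). AEN had 27.8, 26.1 and 26.6 CPM in ALIS, against 19.9, 21.1 and 21.9 CPM in CTL libraries, and rose 1.28-fold (adjusted p 0.00816). These were the calls kept in every fit that left out 1 library. SERTAD1 (log2 0.42, adjusted p 0.0422) kept its call in 2 of 12 such fits, and TNFRSF10D (log2 0.20, adjusted p 0.027) in 8 of 12. MDM4 (log2 -0.24, adjusted p 0.0341) and BBC3 (log2 -0.79, adjusted p 0.0386) were lower, each kept in 5 of 12. SERTAD1, TNFRSF10D, MDM4 and BBC3 all lost their calls without ALIS 7, ALIS 8, ALIS 9 or CTL 3. BBC3 had 1.5, 1.33 and 0.988 CPM in ALIS, against 1.70, 2.57 and 2.35 CPM in CTL libraries, with ALIS 9 and CTL 1 the lowest of their groups.

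MDM2 had 46.6 to 50.5 CPM in ALIS and 50.9 to 57.7 CPM in CTL libraries (log2 -0.14, adjusted p 0.224). FAS had 4.55 to 5.01 CPM in ALIS and 3.69 to 4.17 CPM in CTL libraries, without overlap, but did not pass (log2 0.31, adjusted p 0.13). BAX (log2 -0.05), SESN1 (0.07) and TP53INP1 (-0.07) did not pass, nor did TP53I3 (log2 -0.15, 95% interval -0.35 to 0.04) or DDB2 (-0.04, -0.15 to 0.08).

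In TGFβ-treated cells, Combination against TGFB gave 2 genes higher and 1 lower (9.68%). Of all tested genes 2.08% were called, 1.19% higher and 0.89% lower. PMAIP1 had 55.7, 49.6 and 55.0 CPM in Combination, against 41.7, 39.4 and 44.1 CPM in TGFB libraries, and rose 1.28-fold (adjusted p 0.0072), kept in 10 of 12 leave-one-out fits. TNFRSF10D rose 1.17-fold (adjusted p 0.0264), kept in 4 of 12. DDB2 had 69.0, 76.0 and 75.9 CPM in Combination, against 84.0, 89.8 and 86.0 CPM in TGFB libraries, and fell by a log2 of 0.23. The DDB2 call (adjusted p 0.0292) was kept in 5 of 12 and lost in each fit that left out a TGFB or Combination library. Among those fits, TNFRSF10D kept its call only without Combination 10. PMAIP1 and TNFRSF10D were called in the same direction in both alisertib comparisons, 33.3% of 6 calls and 66.7% of 3 (Spearman's rho 0.544 over 31 genes).

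**Figure D4:**
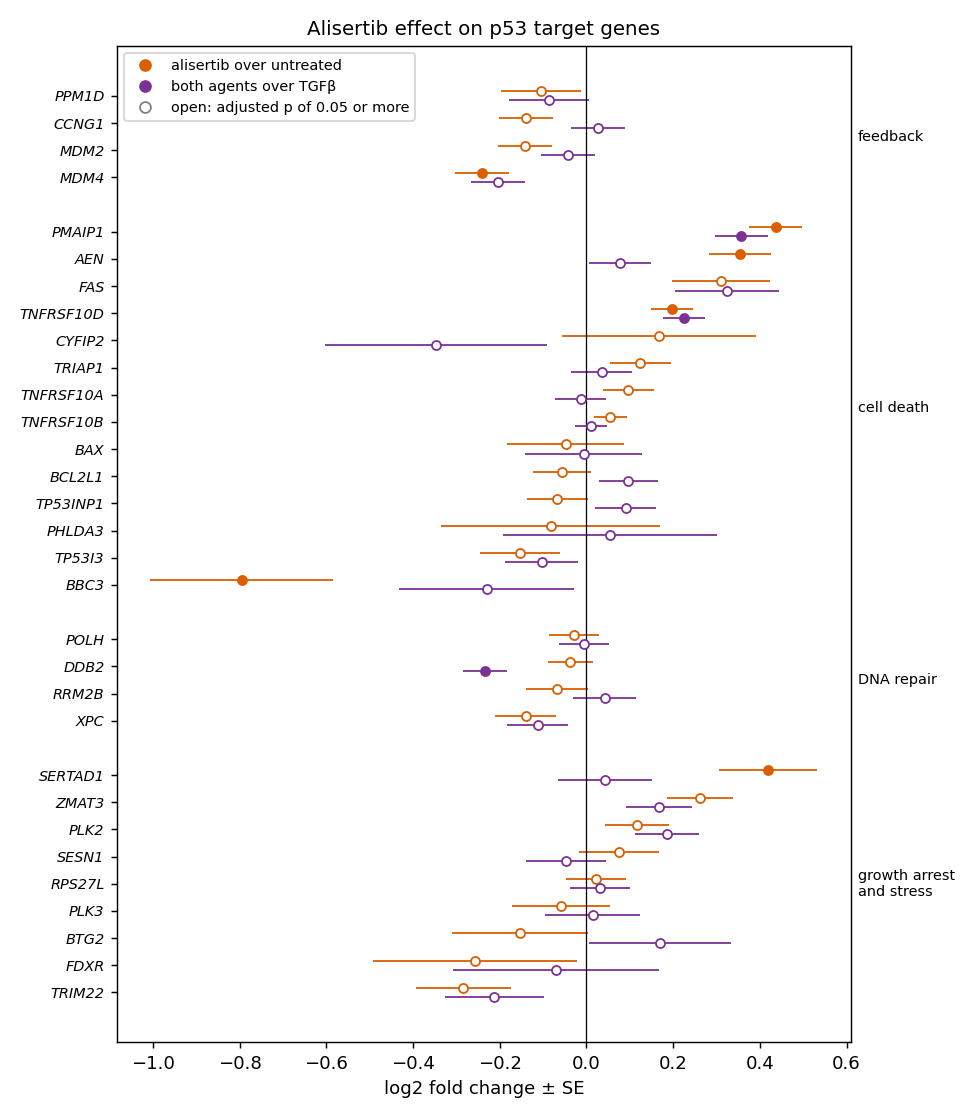
Log2 fold change ± SE of each gene under alisertib, without TGFβ (ALIS over CTL) and with it (Combination over TGFB), grouped by role; filled points passed an adjusted p of 0.05. PMAIP1 (0.44 and 0.36) and TNFRSF10D (0.20 and 0.23) are filled in both; the axis is narrower than for TGFβ.

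Whether alisertib acted differently with TGFβ was tested as an interaction. None of the 31 genes passed by edgeR's quasi-likelihood test or by DESeq2, while edgeR called 0.282% of all tested genes (0.117% higher, 0.165% lower); 3 of 31 had an unadjusted p under 0.05. With the residual component as covariate, 4 of the 31 genes passed (DDB2, AEN, SERTAD1 and BCL2L1), while calls over all genes were 357 higher and 340 lower, against 24 and 34 without it. The 3 with an unadjusted p under 0.05 were AEN (log2 difference -0.28, 95% interval -0.49 to -0.06, adjusted p 0.556), DDB2 (-0.20, -0.35 to -0.04, adjusted p 0.60) and SERTAD1 (-0.38, -0.71 to -0.04, adjusted p 0.78). For TP53I3 the interval was -0.22 to 0.32 and for PLK2 -0.15 to 0.29.

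With both agents, 9 genes were higher and 11 lower than in CTL libraries (64.5%). Of all tested genes 39.7% were called, 19.4% higher and 20.3% lower. This comparison shares its CTL libraries with those of each agent alone. FAS was lower (log2 -0.74) and PMAIP1 lower (log2 -0.33, adjusted p 0.000543), with 49.6 to 55.7 CPM in Combination, against 62.6 to 69.5 CPM in CTL libraries. MDM2 (log2 -0.43) and MDM4 (-0.51) were lower, and TP53INP1 (0.33) and AEN (0.26, adjusted p 0.00963) were higher. BAX (0.18), BBC3 (-0.09) and SESN1 (-0.12) did not pass.

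The 4 libraries that stood apart bear on the genes of high GC content. Over the 31 genes, the mean deviation of these libraries correlated with transcript GC at a Spearman's rho of -0.788, and at -0.644 over the 19649 tested genes with a GC value, a description across genes that share libraries. The lowest values were those of PHLDA3 (log2 -0.44), BBC3 (-0.32), FDXR (-0.26) and BAX (-0.23). PHLDA3 had 6.78, 7.02 and 4.85 CPM in TGFB, against 2.90, 5.70 and 5.89 CPM in CTL libraries, with TGFB 6 and CTL 1 lowest. Without these 4 libraries all 68 calls over the 5 comparisons remained and others were added; leaving them out also lowers the residual spread. For TGFβ alone these were PHLDA3 (log2 0.25, adjusted p 0.0326), BAX (0.16, 0.0101), AEN (0.17, 0.0193) and XPC (0.15, 0.0337), all higher. For alisertib alone, ZMAT3, PLK2, FAS and TRIAP1 were then higher and XPC lower, 8 higher and 3 lower in all. Calls over all genes grew as well, to 2272 higher and 2801 lower for alisertib alone, against 730 and 657 with all 12 libraries, and to 4900 higher and 4492 lower for TGFβ alone, against 3796 and 4144. The cause of the library difference was not tested.

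**Figure D5:**
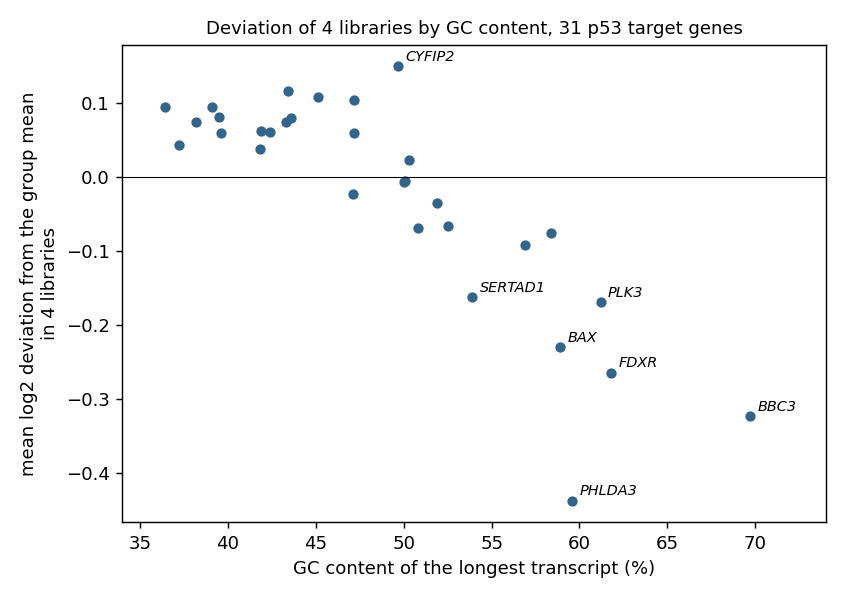
Mean log2 deviation from the group mean in the 4 libraries that stood apart, against the GC content of each gene's longest transcript (GENCODE), for the 31 genes. PHLDA3 (-0.44) and BBC3 (-0.32) lie lowest, and genes of lower GC lie slightly above 0.

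Among the other genes of the p53 family, TP63 fell by a log2 of 2.89 with TGFβ, with 0.112 to 0.201 CPM in TGFB and 1.20 to 1.28 CPM in CTL libraries. TP73 was higher with TGFβ (log2 0.59, adjusted p 0.0138) and lower with alisertib (-0.65, adjusted p 0.0471). Of 29 tested p53 family genes, kinases and cofactors, 5 were higher and 11 lower with TGFβ (55.2% called, against 38.6% of all tested genes; median log2 -0.07). They included ZNF385A (log2 1.96), PPP1R13L (1.22), an inhibitor of p53, and AURKA (-0.71), the target of alisertib. AURKA was higher in Combination than in TGFB libraries (log2 0.34, adjusted p 0.0121). With alisertib alone 3 were higher and 4 lower (24.1%, against 6.74% of all tested genes), among them HEXIM1 (log2 -0.31), TP53RK (0.28) and ATM (-0.27). Their adjusted p-values by edgeR's test were 0.0278, 0.0344 and 0.0341. Whether these calls remain when 1 library is left out was not examined.

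Of 25 other p53 target genes, 11 rose and 7 fell with TGFβ (72% called, against 38.6% of all tested genes; median log2 0.18), including TP53AIP1 (log2 2.86), GDF15 (-2.06) and SFN (1.80). Counts were low for GDF15, with 11 to 16 in TGFB and 34 to 68 in CTL libraries. TP53AIP1 had 139 to 198 counts in TGFB and 10 to 35 in CTL libraries. With alisertib alone 2 of the 25 (8%) rose, among them C12orf5 (log2 0.29), a share near the 6.74% of all tested genes called. Of the 12 listed cell cycle genes that p21 represses through the DREAM complex, represented by 13 gene IDs because CKS1B has 2, 11 IDs were lower and 1 was higher with TGFβ (92.3% called, against 38.6% of all tested genes; median log2 -0.35). The falls included CCNA2 (log2 -0.68), CDC25C (-0.52), CCNB2 (-0.50) and KIF23 (-0.46), and the rise, picked after its value was seen, was MYBL2 (0.37, adjusted p 0.0493). None of the 13 passed with alisertib alone, where 6.74% of all tested genes did.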

How the data were processed

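Per the labels' protocols, RNA came from a miRNeasy extraction and the libraries from a TruSeq v2 kit that does not mark strand. The submitters' processing notes name the build hg19 and the tools bcl2fastq, TopHat, Subread and featureCounts; their versions and settings are not given in the sources used here. As deposited by the authors, the table has raw whole-number counts for each gene, with no normalisation, together with RPKM values that they computed. RPKM served only to compare levels between genes.

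The counts were fitted in R 4.3.3 with edgeR 4.0.16, after filterByExpr had left 20571 genes and with TMM scaling. All 12 libraries entered 1 quasi-likelihood fit with 8 residual degrees of freedom, and 5 pairwise comparisons and the interaction were tested with Benjamini-Hochberg adjustment over all tested genes. Standard errors came from the log2 fold change and its F statistic. Alternatives were DESeq2 1.42.0, no filter on low counts, only the 2 groups compared, leaving out libraries, and the first principal component of the residuals as a covariate. Every gene with at least 10 counts in 3 libraries was described; of other lists, up to 4 called genes with the largest change in a comparison and TP63 and TP73 were eligible to be named, and some genes that meet this rule are not reported here. The members and lists were chosen with earlier results of these data known. Promoter windows are from RefSeq, GRCh38.p14, matched by symbol. Gene coordinates of the count table are in hg19.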

Additional observations from a re-analysis of the deposited data

How the results depend on the processing

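No paired analysis was possible because the replicate numbers run through the series and are not shared between groups. No called change reversed direction under any alternative run. Of 68 gene and comparison calls, 67 remained with DESeq2, 65 with no filter on low counts, 59 with only the 2 groups compared, 68 with the residual component as covariate and 68 without the 4 libraries that stood apart; these last 2 settings lower the residual spread, so calls kept there say little about stability. In ALIS against CTL libraries, the 4 genes higher became 2 with only the 2 groups compared, 8 without the 4 libraries and 8 with the covariate, and 2 to 6 when 1 library was left out; the 2 lower became 0, 3 and 6, and 0 to 2. Over all genes, the 730 higher and 657 lower became 354 and 269, 2272 and 2801, and 2386 and 2937 in those 3 settings. In Combination against TGFB libraries, the 2 higher became 1 with no filter, 1 with only the 2 groups, 6 with the covariate and 0 to 2 when 1 library was left out, with 0 without TGFB 5 or Combination 12; the 1 lower became 0 with only the 2 groups, 2 without the 4 libraries, 2 with the covariate and 0 to 1. Over all genes, the 245 higher and 183 lower became 271 and 204 with no filter, 140 and 167 with only the 2 groups, 683 and 751 without the 4 libraries and 1479 and 1702 with the covariate. The interaction gave 1 higher and 3 lower with the covariate: BCL2L1 (log2 0.15), AEN (-0.28), DDB2 (-0.20) and SERTAD1 (-0.38). The cause of these changes was not tested. When 1 library was left out, TGFB against CTL gave 7 to 9 higher and 10 to 12 lower, Combination against CTL 8 to 9 and 10 to 13, and Combination against ALIS 7 to 10 and 8 to 11. Depth limits CYFIP2, which had 38 to 142 counts per library.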
